A study of Mus musculus with 35 samples.

Results

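The mitotic spindle and proliferation genes described here are 40 genes of mouse lung, taken by symbol from the 54532 genes of the count table. They are markers of dividing cells and parts of the machinery that copies DNA and separates chromosomes. All 40 were found in the table, each had at least 1 count in every library, and all 40 passed the filter on low counts in every comparison.

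Whole lungs of 34 mice in 12 groups gave 1 RNA library each, of 12425535 to 33343006 counts (median 18015172.5). The Control mice were wildtype B6/129SJ2, the Cav1-KO mice carried the Cav1(tm1Mls/)J allele and lacked caveolin-1, the coat protein of caveolae, in every tissue, and the Cav1-RC mice were Cav1-KO mice with caveolin-1 put back in endothelial cells only. Females and males of each genotype, all adults of at least 3 months, spent 6 weeks in room air (normoxia) or in 10% oxygen (hypoxia), a standard model of pulmonary hypertension. There were 3 libraries per group, and 2 in the normoxic female groups of Cav1-KO and Cav1-RC. The labels give 1 batch date for all libraries and do not say which promoter drove Cav1 in Cav1-RC mice. By the paper, Control and Cav1-KO mice were first bought from Jackson Labs, and Cav1-RC mice came from Yale University. It does not describe littermates, so genotype and colony cannot be told apart here.

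A dividing cell makes these transcripts in waves. Replication genes such as the Mcm helicase subunits rise as the cell enters S phase under E2F factors, while the mitotic genes rise in G2 and M phase through promoters with CCAAT boxes and a cell cycle homology region, and most fall silent in resting cells. In the adult lung few cells divide, so a whole-lung level of these genes reflects a small, mixed population of endothelial, epithelial, stromal and blood-derived cells. In such bulk samples, more dividing cells and more RNA per dividing cell cannot be told apart.

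Promoters of 34 of the 40 genes were in the RefSeq promoter table (GRCm38.p6, 250 bases before to 50 bases after the start that RefSeq gives the gene). That start lay within 50 bases of the gene's start in the count table for 26 of the 34, and for 3 (Pttg1, Kif4 and Kif2c) the whole window lay inside the gene as counted. The stretches of Top2a, Ube2c, Plk1 and Mcm5, whose levels are given below, are printed as examples, and they differ in the letters they hold. Capitals mark a CCAAT box (CCAAT), a cell cycle homology region (TTTGAA or TTCGAA) or an E2F site (TTNNCGC, each N a C or a G), each searched on both strands.
Top2a, chr11:99024140-99024439, minus strand: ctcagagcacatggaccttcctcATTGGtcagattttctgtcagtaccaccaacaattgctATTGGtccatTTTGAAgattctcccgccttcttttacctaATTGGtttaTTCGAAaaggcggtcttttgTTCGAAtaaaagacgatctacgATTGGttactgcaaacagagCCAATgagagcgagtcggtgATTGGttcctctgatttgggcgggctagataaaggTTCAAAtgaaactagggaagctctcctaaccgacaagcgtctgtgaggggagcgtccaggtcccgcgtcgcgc
Ube2c, chr2:164769679-164769978, plus strand: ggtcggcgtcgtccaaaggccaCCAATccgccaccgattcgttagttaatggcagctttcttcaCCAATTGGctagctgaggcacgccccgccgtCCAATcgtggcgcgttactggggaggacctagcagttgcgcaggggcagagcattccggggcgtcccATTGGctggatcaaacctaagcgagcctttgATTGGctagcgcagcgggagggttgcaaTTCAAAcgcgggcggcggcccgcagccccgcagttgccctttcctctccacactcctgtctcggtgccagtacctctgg
Plk1, chr7:122159185-122159484, plus strand: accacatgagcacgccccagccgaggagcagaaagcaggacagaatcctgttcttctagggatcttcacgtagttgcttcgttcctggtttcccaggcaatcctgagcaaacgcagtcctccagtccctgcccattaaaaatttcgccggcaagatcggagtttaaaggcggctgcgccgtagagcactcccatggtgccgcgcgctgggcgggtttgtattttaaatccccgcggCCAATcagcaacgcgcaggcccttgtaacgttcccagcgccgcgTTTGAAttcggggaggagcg
Mcm5, chr8:75109259-75109558, plus strand: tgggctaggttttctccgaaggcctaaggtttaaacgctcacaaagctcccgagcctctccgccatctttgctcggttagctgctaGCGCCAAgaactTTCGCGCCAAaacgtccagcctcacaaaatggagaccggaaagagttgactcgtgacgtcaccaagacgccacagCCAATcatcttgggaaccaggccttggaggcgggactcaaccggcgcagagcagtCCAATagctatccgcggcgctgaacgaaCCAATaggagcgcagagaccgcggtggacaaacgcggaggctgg
The Top2a stretch held 6 CCAAT boxes and 4 cell cycle homology regions, the Ube2c stretch 6 and 1, the Plk1 stretch 1 of each, and the Mcm5 stretch 3 CCAAT boxes, 3 E2F sites and no cell cycle homology region. A CCAAT box was found in 25 of the 34 promoters (73.5%) and in 37.9% of the 27025 promoters of distinct symbols in the table. A cell cycle homology region was found in 22 of 34 (64.7%, against 19.4% of all), and an E2F site in 5 of 34 (14.7%, against 9.7%). At least 2 CCAAT boxes together with a cell cycle homology region were found in 14 of 34 promoters (41.2%, against 2.4%), among them those of Cdk1, Mki67, Top2a, Cdc20, Ube2c, Bub1 and Aurka. Read on the other strand, an E2F site with both N as G shares its last letters with a CCAAT box where a T follows.

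Levels per transcript length (FPKM, fragments scaled by gene length and library size) were low. The median over libraries was above 1 FPKM for 19 of the 40 genes. Pcna, the sliding clamp of DNA polymerases, was highest at 27.1 FPKM, followed by Pttg1, the securin that inhibits separase until anaphase, at 9.98 FPKM and Cdc20, the activator of the anaphase-promoting complex, at 3.72 FPKM. Ttk, a checkpoint kinase, was lowest at 0.242 FPKM. Between the lowest and the highest library, CPM (counts scaled to a library size adjusted by edgeR's TMM factors) differed 1.74-fold for Pcna and 38.6-fold for Pttg1, with a median of 4.71-fold over the 40 genes. Ccnb2 and Ccnb1, both B-type cyclins, have processed copies elsewhere in the genome. Ccnb2-ps was counted with 23 to 124 reads per library, so reads of gene and copy may be misplaced or lost.

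Facts of the libraries that touch the values are these. Cav1 was at 976 to 1360 CPM in Control, 1.62 to 3.93 CPM in Cav1-KO and 1.48 to 6.47 CPM in Cav1-RC libraries. The counts thus show the loss of Cav1 in Cav1-KO but no return of reads at the Cav1 gene in Cav1-RC. The paper's western blots did detect caveolin-1 protein in Cav1-RC lungs, at a low level. Whether reads of the reconstituting construct would be counted at the Cav1 gene was not tested. In 3 libraries labelled male (male Control hypoxia replicate 2 and male Cav1-RC normoxia replicates 1 and 2) Xist stood at 749 to 866 CPM and 4 Y chromosome genes summed to at most 1.10 CPM, against the label. Female Cav1-KO hypoxia replicate 2 had Xist at 710 CPM, a female level, but also 17.4 CPM of the Y chromosome genes, where the other female libraries had at most 2.56 CPM and the other male libraries 182 to 339 CPM. Labels were kept throughout, and results without these 4 libraries are given for part of the comparisons that use them. In addition, 12 of the 34 animals appear by number in the source data of the study's western blots. These listed animals make up all of male Control hypoxia, female Cav1-KO hypoxia and male Cav1-KO hypoxia, plus replicate 1 of both female Control groups and of the normoxic female Cav1-RC group. For a comparison of a wholly listed with a wholly unlisted group, the listing and the group cannot be told apart.

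A single fit over the 34 libraries took a term for the listing, whose size comes only from the groups of mixed listing. These are both female Control groups and female Cav1-RC normoxia, so none is male or Cav1-KO. The term differed from 0 in 7 of the 40 genes at an adjusted p under 0.05, against 45.8% of all genes tested (edgeR's quasi-likelihood test, Benjamini-Hochberg over all genes). Of the 7 genes, 2 were higher and 5 lower in listed animals. Only Plk1, the kinase that drives entry into mitosis, also passed a log2 difference of 1. It was higher in listed animals, with a log2 difference of 1.31 (SE 0.209, adjusted p = 2.2e-05). Within groups of mixed listing, Plk1 stood at 8.33 CPM in the listed female Control normoxia library against 3.67 and 2.43 CPM in the unlisted ones, and at 15.9 against 5.85 CPM in female Cav1-RC normoxia. Mcm5 (log2 difference of -0.85, adjusted p = 0.00440) and Top2a (-0.87, adjusted p = 0.0188) were lower in listed animals in the same fit. Over all genes tested, 13.5% passed both thresholds, as did 1 of the 40 genes.

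Summed over 38 of the 40 genes, without Pttg1 and Pcna, which would dominate the sum, female Control normoxia libraries stood at 153, 153 and 170 CPM. Female Cav1-KO normoxia libraries stood at 319 and 335 CPM, higher than every other normoxic library. Both have library names with an added suffix, as do only male Cav1-KO normoxia replicate 3 and male Cav1-RC normoxia replicate 3. What the suffix stands for was not known. Female Control hypoxia libraries held 165, 196 and 218.2 CPM. Female Cav1-KO hypoxia libraries held 212.4, 363 and 246 CPM, and the highest of these is the library with Y chromosome reads. That library was the highest in its group for 36 of the 40 genes and the highest of all 34 libraries for 19. In males Cav1-KO and Control overlapped in normoxia, while normoxic and hypoxic Cav1-KO libraries did not overlap. Male Control normoxia libraries held 295, 269 and 152 CPM, male Cav1-KO normoxia libraries 254, 274 and 240 CPM, and male Cav1-KO hypoxia libraries 187, 216 and 211.9 CPM. Replicate 3 of male Control normoxia was the highest in its group for 0 of the 40 genes, as was replicate 3 of male Cav1-RC normoxia.

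**Figure D1:**
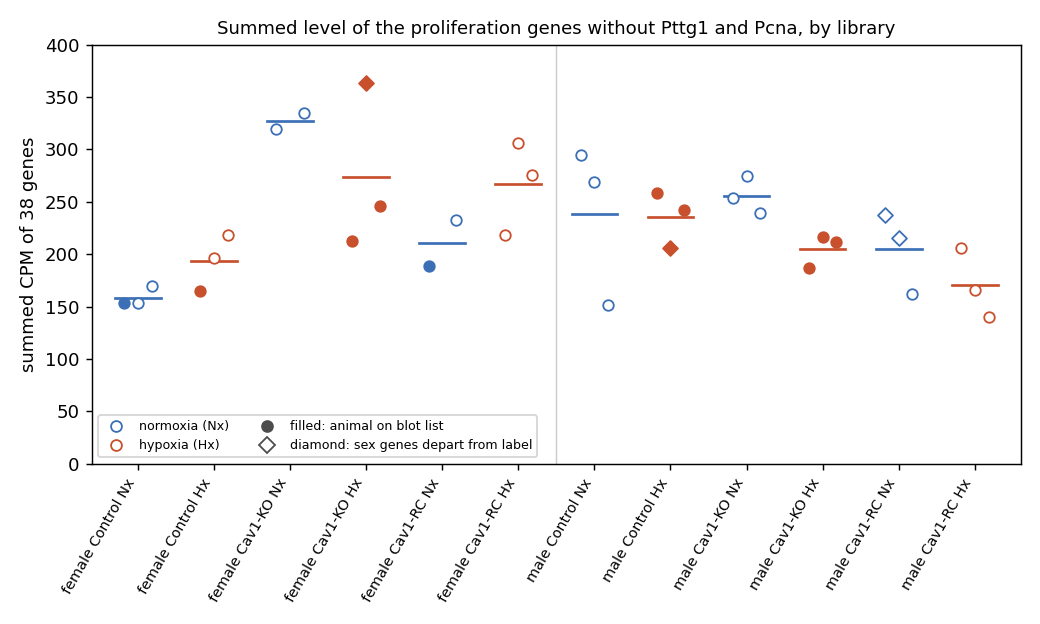
Summed CPM of 38 proliferation genes (y axis, without Pttg1 and Pcna) for each of 34 libraries in 12 groups (x axis, Nx normoxia, Hx hypoxia); lines are group means, filled points are animals listed with the western blots, and diamonds are the 4 libraries whose sex genes departed from the label. The 2 female Cav1-KO normoxia libraries lie at 319 and 335 CPM, above the 3 female Control normoxia libraries at 153 to 170 CPM.

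The first question was how Cav1-KO and Control lungs differed in room air. In females, all 40 genes had a positive log2 fold change in Cav1-KO against Control, with a median log2 fold change of 0.95 against -0.016 over all genes tested. Mki67, the Ki-67 antigen of cycling cells, stood at 33.3 and 38.4 CPM in Cav1-KO and at 10.7, 13.5 and 14.6 CPM in Control. Top2a, the topoisomerase that untangles chromosomes, stood at 26.3 and 25.5 CPM against 5.07, 6.80 and 9.08 CPM. For both genes each Cav1-KO library lay above each Control library. The log2 fold change was 1.44 (SE 0.214, adjusted p = 0.0893) for Mki67 and 1.87 (SE 0.278, adjusted p = 0.0893) for Top2a.

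No member passed the threshold in this comparison (an absolute log2 fold change above 1 and an adjusted p under 0.05 by edgeR's quasi-likelihood test), where 0.122% of all genes passed. At an unadjusted p under 0.05 there were 28 members of 40, all higher, against 11.5% of all genes. For 35 of the 40 genes both Cav1-KO libraries lay above all 3 Control libraries, which held for 19.1% of all genes. DESeq2's Wald test called 8 members, all higher, and 3.35% of all genes. Pttg1, Cdc20, Cenpf, Mki67, Top2a and Tpx2 were called in each of 5 alternatives (DESeq2, no filter on low counts, the replicate block, 1 fit over all 34 libraries, and that fit with the listing term). With DESeq2's size factors in edgeR and in the 3 limma fits to FPKM values 0 members were called. Leaving out Control replicate 1, the listed library of the group, brought the count to 9, with 2.64% of all genes called.

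By role, the median log2 fold change in this comparison was 1.71 for the anaphase-promoting complex and securin, 1.66 for Mki67 and Top2a, 1.25 for the proteins that bind spindle microtubules, 1.15 for the cyclins and Cdk1, and 1.05 for the chromosomal passenger complex. It was 0.96 for the mitotic kinesins, 0.94 for the centromere and corona proteins, 0.86 for the outer kinetochore, 0.71 for the spindle checkpoint, 0.62 for DNA replication and 0.47 for the mitotic kinases. Cenpf, a kinetochore corona protein, had the largest value after Pttg1, a log2 fold change of 2.20 (SE 0.359, adjusted p = 0.105). Tpx2, which activates Aurora A at the spindle, followed Cdc20 (1.71) at 1.63 (SE 0.283, adjusted p = 0.122). The smallest values were those of Pcna at 0.025, Spc25, a subunit of the Ndc80 complex at the outer kinetochore, and Plk1. Plk1 was at 6.10 and 5.79 CPM in Cav1-KO, inside the Control range of 2.43 to 8.33 CPM that its listed library set.

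In males the same comparison gave no common direction. The median log2 fold change of the 40 genes was -0.025, 18 of 40 were positive, and for 4 of 40 the Cav1-KO libraries lay above all Control libraries, where 19.6% of all genes did. Mki67 stood at 23.6, 26.5 and 21.3 CPM in Cav1-KO and at 40.6, 31.4 and 11.8 CPM in Control. Top2a stood at 15.2, 18.7 and 15.9 CPM against 24.6, 19.3 and 8.36 CPM. The Control libraries spanned the Cav1-KO range for both genes, with replicate 3 below it. Pttg1 was the 1 member called, and 5% of all genes passed.

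The female minus male difference of this fold change was positive for 38 of the 40 genes, with a median log2 difference of 0.90. Prc1, which bundles midzone microtubules, had the smallest p, a log2 difference of 1.17 (SE 0.292, adjusted p = 0.999), and Top2a had a log2 difference of 1.98 (SE 0.495, adjusted p = 0.999). At an unadjusted p under 0.05 there were 18 members, against 3.51% of all genes. The interaction test of edgeR called 0 members and 0% of all genes, and DESeq2's Wald test likewise called 0 members.

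**Figure D2:**
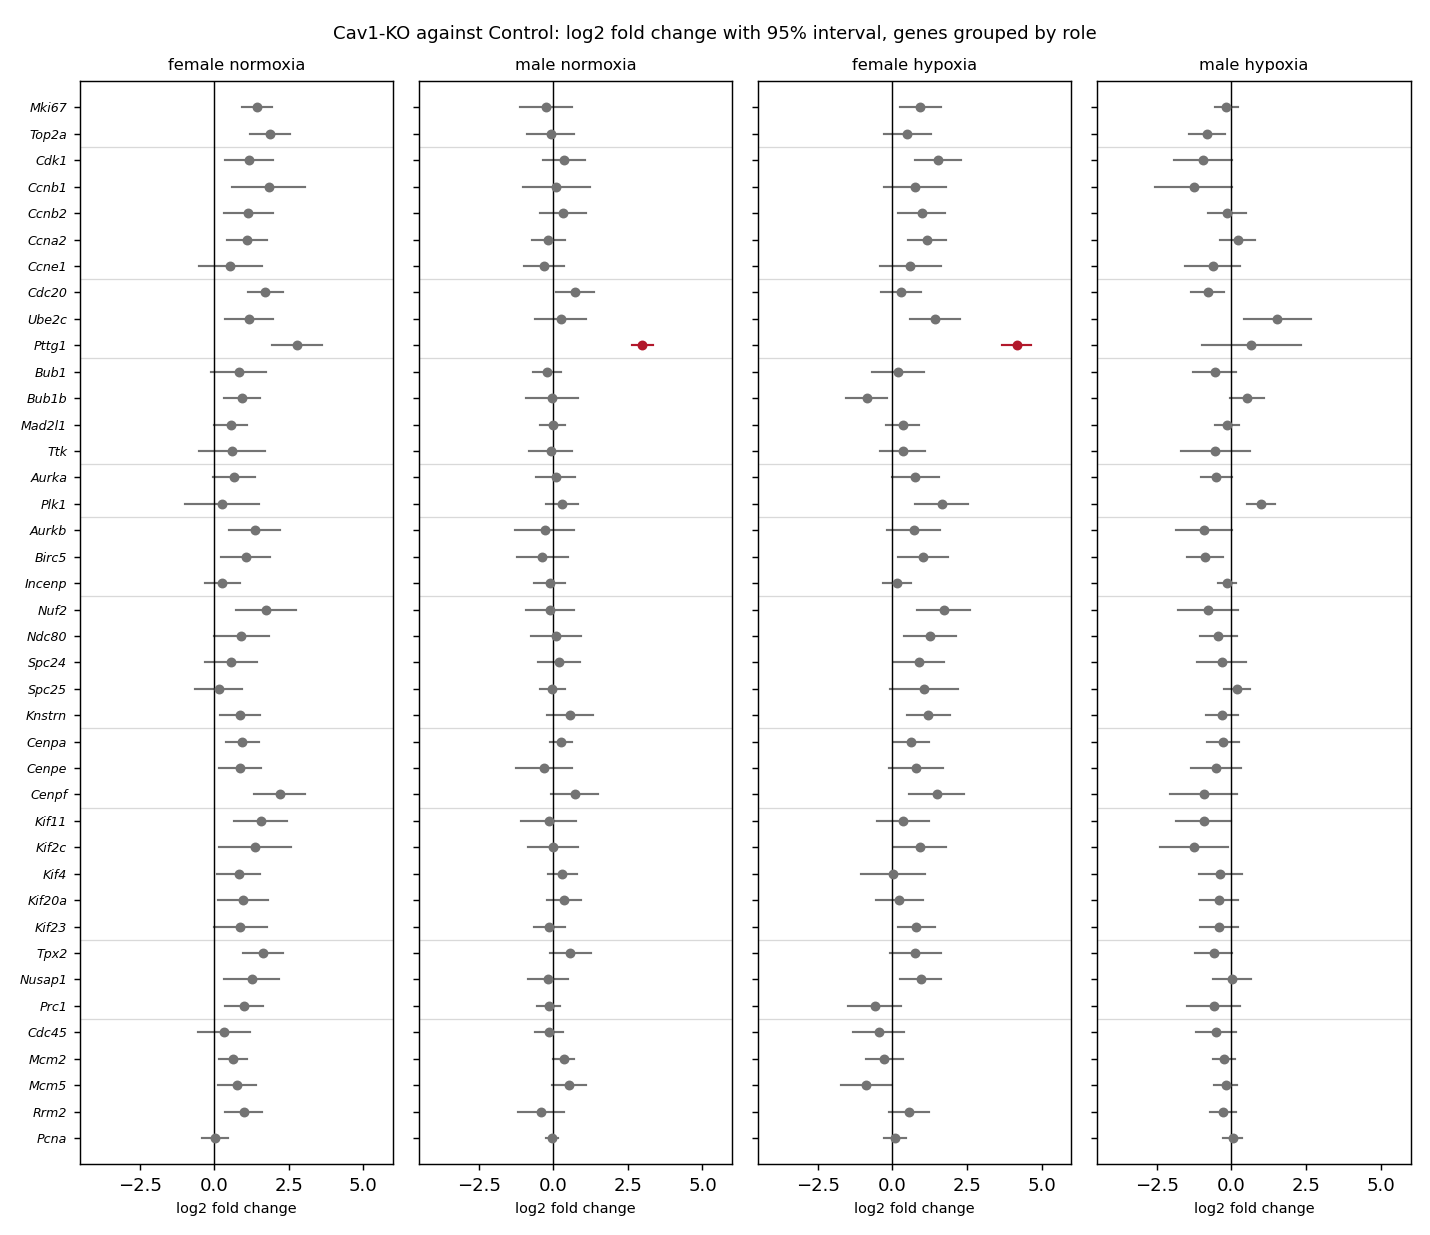
Log2 fold change (x axis) of each of the 40 genes (y axis, grouped by role) in Cav1-KO against Control for both sexes and oxygen levels, with bars for the 95% interval of edgeR's test and red for genes called higher. In female normoxia all 40 points lie right of 0, while in male hypoxia 8 of 40 do.

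The second question was the same comparison under hypoxia. In females the median log2 fold change was 0.76 and 35 of the 40 genes were positive, while 0.768% of all genes were called. Cdk1, the kinase partner of the mitotic cyclins, had a log2 fold change of 1.53 (SE 0.325, adjusted p = 0.0778). Nuf2, a subunit of the microtubule-binding Ndc80 complex, had 1.72 (SE 0.378, adjusted p = 0.0802) and Plk1 had 1.65 (SE 0.380, adjusted p = 0.0827). Plk1 stood at 10.6, 14.1 and 9.54 CPM in Cav1-KO and at 5.49, 2.05 and 3.29 CPM in Control, without overlap. Mki67 stood at 21.3, 45.7 and 30.8 CPM against 14.0, 17.0 and 20.4 CPM, also without overlap, while Top2a at 10.8, 21.7 and 14.7 CPM overlapped with 7.09, 12.4 and 13.8 CPM.

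Pttg1 was the 1 member called, and 19 members had an unadjusted p under 0.05, against 29% of all genes. The Cav1-KO libraries lay above all Control libraries for 21 genes (16.5% of all genes) and below them for 1 (16.3%), Bub1b, a checkpoint pseudokinase, at 4.93, 5.57 and 4.20 CPM against 5.88, 9.73 and 11.3 CPM. The 5 DNA replication genes were at a median of -0.27 and the mitotic genes at 0.79. The list of 58 other replication genes went the other way from those 5, with a median of 0.29 over 57 tested and sums of 747 to 860 CPM in Cav1-KO against 665 to 719 CPM in Control. Mcm5, a subunit of the replicative helicase, was at 7.98, 10.3 and 8.90 CPM in Cav1-KO and at 8.27, 21.2 and 20.6 CPM in Control, its lowest Control value again in the listed library. Leaving out that library, Control replicate 1, gave 14 calls, 12 higher and 2 lower (Bub1b and Mcm5), while 23.9% of all genes were then called. Without Cav1-KO replicate 2, the library with Y chromosome reads, Pttg1 was still the 1 call and the median was 0.39.

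In male hypoxia the median was -0.42 and 8 of the 40 genes were positive. No member was called by edgeR, where 0.929% of all genes were. At an unadjusted p under 0.05 there were 7 members (19.5% of all genes), and DESeq2's Wald test called 1, higher (2.49% of all genes). Without Control replicate 2, whose sex genes went against its label, edgeR called 2 members, both lower, Cdk1 and Kif2c, a kinesin that takes microtubules apart, with 2.92% of all genes called. Without Cav1-KO replicate 2 it called 2, 1 in each direction (1.61% of all genes). The Cav1-KO libraries lay below all Control libraries for 10 genes (12.8% of all genes) and above for 2 (12.4%), Plk1 and Bub1b. Top2a stood at 5.10, 9.79 and 5.48 CPM in Cav1-KO and at 12.9, 12.6 and 10.2 CPM in Control, a log2 fold change of -0.82 (SE 0.268, adjusted p = 0.151). Plk1 went the other way, at 14.5, 13.1 and 13.1 CPM against 6.85, 5.01 and 8.61 CPM, a log2 fold change of 0.99 (SE 0.209, adjusted p = 0.0618). Both groups consist of listed animals.

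The female minus male difference under hypoxia was positive for 35 of 40 genes, with a median log2 difference of 1.08. Birc5, or survivin, of the chromosomal passenger complex had a log2 difference of 1.88 (SE 0.434, adjusted p = 0.257) and Cdk1 had 2.46 (SE 0.578, adjusted p = 0.257). None of the 40 passed edgeR's test, nor did any other gene (0%), while 25 members had an unadjusted p under 0.05, against 16.4% of all genes, and DESeq2's Wald test called 5, all higher (0.861% of all genes). Without female Control hypoxia replicate 1 the count by edgeR was 14, with 15.5% of all genes called.

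**Figure D3:**
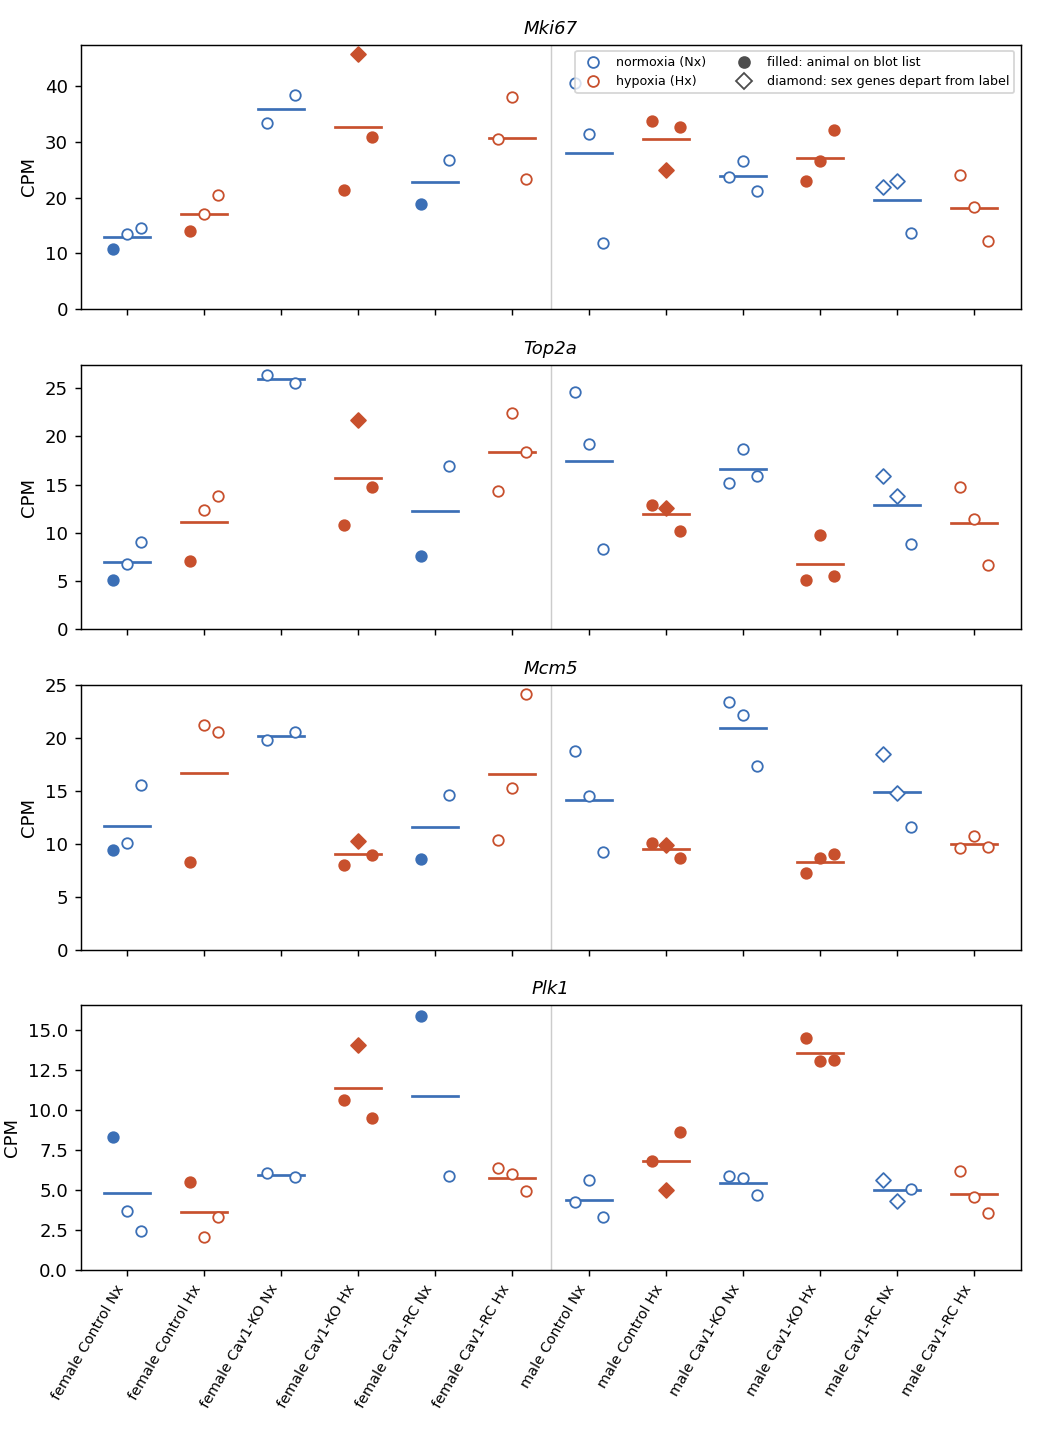
CPM (y axis, from 0) of Mki67, Top2a, Mcm5 and Plk1 in each of 34 libraries of 12 groups (x axis); lines are group means, filled points listed animals, diamonds the 4 libraries whose sex genes departed from the label. Plk1 lies at 9.54 to 14.5 CPM in all 6 Cav1-KO hypoxia libraries, and Mcm5 lies at 7.29 to 10.3 CPM in the same libraries.

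Pttg1 fell into separate ranges of levels. It stood between 2.24 and 4.97 CPM in 10 of the 12 Control libraries, and at 66.3 and 63.2 CPM in replicates 1 and 3 of male Control hypoxia. In Cav1-KO it was at 29.7 and 25.5 CPM in female normoxia, 34.1, 28.1 and 37.6 CPM in male normoxia, 63.2, 55.4 and 50.1 CPM in female hypoxia and 86.5, 61.2 and 65.0 CPM in male hypoxia. No Cav1-KO library overlapped with the 10 low Control libraries. Cav1-RC libraries were divided, with 14.5 to 29.4 CPM in the 5 female libraries, and in males 16.6, 4.30 and 2.99 CPM in normoxia and 19.4, 2.60 and 21.0 CPM in hypoxia.

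Against Control, the log2 fold change of Pttg1 in Cav1-KO was 2.78 (SE 0.350, adjusted p = 0.0702) in female normoxia, 2.99 (SE 0.146, adjusted p = 5.2e-05) in male normoxia and 4.16 (SE 0.213, adjusted p = 0.000348) in female hypoxia. The last value and that of male normoxia were called under all 16 and 15 alternatives. In male hypoxia the high Control libraries overlapped with Cav1-KO, and the log2 fold change was 0.67. The levels of Pttg1 and Mki67 can be set side by side in single libraries. Male Control hypoxia replicate 2, whose sex genes went against its label, held 3.36 CPM of Pttg1 and 25.0 CPM of Mki67, while replicate 1 held 66.3 and 33.8 CPM.

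**Figure D4:**
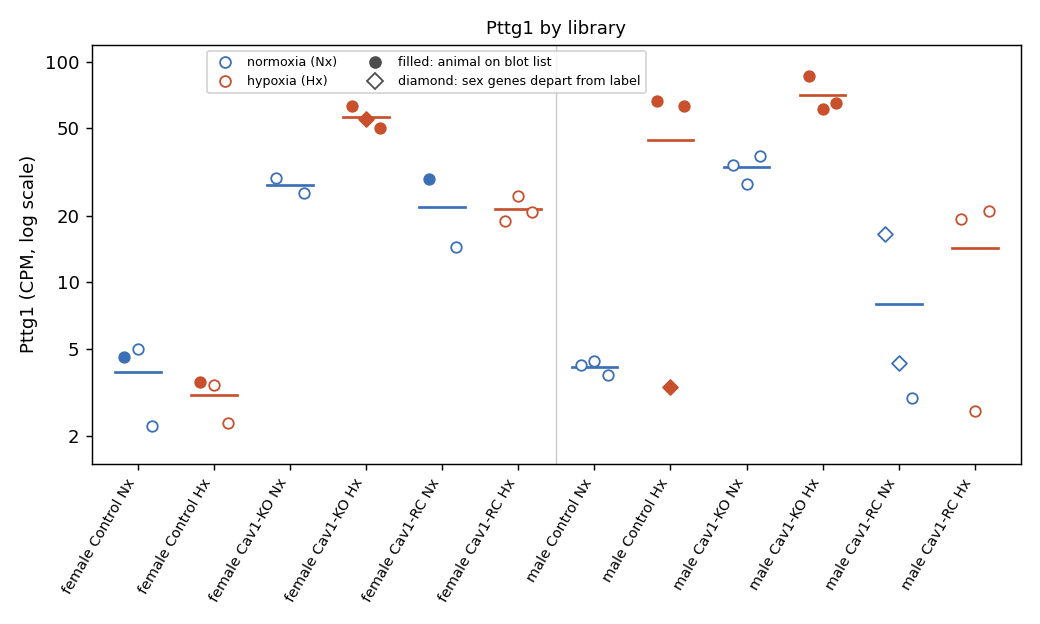
Pttg1 in CPM (y axis, log scale) in each of 34 libraries of 12 groups (x axis); lines are group means, filled points listed animals, diamonds the 4 libraries whose sex genes departed from the label. Control libraries lie between 2.24 and 4.97 CPM except for 2 at 66.3 and 63.2 CPM, and all 11 Cav1-KO libraries lie between 25.5 and 86.5 CPM.

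The third question was the effect of hypoxia within a genotype. In female Control no member was called (0.0175% of all genes were), 1 had an unadjusted p under 0.05 (4.79% of all genes), DESeq2's Wald test called 0, and the median was 0.13. In male Control only Pttg1 was called, with a log2 fold change of 3.41 (SE 0.860, adjusted p = 0.0363), on 2 high libraries of 3 and with overlapping groups. The hypoxic animals were listed and the normoxic ones were not. Of 16 alternatives 6 kept the call, which was lost with the replicate block, the listing term and limma, and without any 1 library other than hypoxia replicate 2. There 6.36% of all genes were called, and the median of the 40 genes was -0.012.

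In male Cav1-KO 9 of the 40 genes were called, 3 higher and 6 lower, where 17.7% of all genes were called, 8.75% higher and 8.97% lower. Mcm5 fell from 23.4, 22.2 and 17.3 CPM in normoxia to 7.29, 8.70 and 9.00 CPM in hypoxia, a log2 fold change of -1.33 (SE 0.154, adjusted p = 0.000195). Plk1 rose from 5.90, 5.72 and 4.68 CPM to 14.5, 13.1 and 13.1 CPM, a log2 fold change of 1.33 (SE 0.151, adjusted p = 0.000185). Neither gene overlapped between the groups. Pttg1 rose by a log2 fold change of 1.09 (SE 0.153, adjusted p = 0.000481).

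Ube2c, the ubiquitin-conjugating enzyme of the anaphase-promoting complex, rose from 4.31, 4.50 and 3.92 CPM to 16.6, 4.99 and 19.9 CPM, a log2 fold change of 1.72 (SE 0.424, adjusted p = 0.00804). Its 2 high libraries were also high in the summed level of 20 erythroid genes, at 21023 and 19211 CPM against 1668 CPM in the third. The erythroid genes numbered 9 called higher of 12 tested in this comparison, and their part in the result was not tested. Top2a fell from 15.2, 18.7 and 15.9 CPM to 5.10, 9.79 and 5.48 CPM, a log2 fold change of -1.31 (SE 0.242, adjusted p = 0.00195). Prc1, the motor Kif11 (Eg5), which separates spindle poles, Cdc20 and Ccnb1 (cyclin B1) also fell, with log2 fold changes of -1.38, -1.41, -1.04 and -1.67. Mki67 stood at 23.6, 26.5 and 21.3 CPM in normoxia and at 22.9, 26.5 and 32.0 CPM in hypoxia, with overlap.

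With no threshold on the fold, 18 of the 40 genes had an adjusted p under 0.05, against 55.1% of all genes. Mcm2, another helicase subunit, was among them at a log2 fold change of -0.91 (SE 0.151, adjusted p = 0.00108), as was Spc25 at 0.88 (SE 0.158, adjusted p = 0.00169). The median over the 40 genes was -0.46, at -0.77 for DNA replication and -0.40 for the mitotic genes.

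In female Cav1-KO 4 genes were called, 1 higher and 3 lower, where 13.3% of all genes were, 6.29% higher and 7% lower. Mcm5 fell from 19.9 and 20.6 CPM to 7.98, 10.3 and 8.90 CPM, a log2 fold change of -1.16 (SE 0.152, adjusted p = 0.00214). Bub1b fell from 10.4 and 13.3 CPM to 4.93, 5.57 and 4.20 CPM, a log2 fold change of -1.27 (SE 0.211, adjusted p = 0.00450). Prc1 fell from 10.5 and 10.8 CPM to 2.32, 5.45 and 2.65 CPM, a log2 fold change of -1.60 (SE 0.363, adjusted p = 0.0137). None of the 3 overlapped between the groups. Pttg1 rose by 1.02 (SE 0.132, adjusted p = 0.00208), and Plk1 had a log2 fold change of 0.94 (SE 0.220, adjusted p = 0.0155), under the fold threshold.

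In both sexes the hypoxic Cav1-KO animals were listed and the normoxic ones were not, so hypoxia and listing cannot be told apart within Cav1-KO. In the single fit with the listing term, which takes the size of the listing difference from the mixed groups, the calls went from 4 to 0 in females and from 9 to 0 in males, while the share of all genes called went to 0.277% and 0.398%. Plk1 then had a log2 fold change of 0.013 in males, and Mcm5 one of -0.48. Their listing terms were log2 differences of 1.31 and -0.85, where those of Ube2c and Prc1 were -0.17 and -0.13. Folds of the other called genes in this fit are not given here. No mixed group is male or Cav1-KO.

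The difference between Cav1-KO and Control in the effect of hypoxia was called for 0 members in females (0% of all genes), where 8 had an unadjusted p under 0.05 (26.2% of all genes) and DESeq2's Wald test called 5 (7.4% of all genes). Without female Control hypoxia replicate 1 edgeR called 9, with 25.9% of all genes called. In males 1 was called (2.03% of all genes). This was Cdc20, which stood at 3.89, 6.33 and 4.39 CPM in hypoxic and 9.19, 10.1 and 10.4 CPM in normoxic Cav1-KO, and at 9.49, 7.04 and 8.67 CPM in hypoxic and 8.02, 6.27 and 3.54 CPM in normoxic Control. The log2 difference was -1.52 (SE 0.384, adjusted p = 0.0492), and 9 of 22 alternatives kept the call. In males all hypoxic libraries of both genotypes were listed and all normoxic ones were not.

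**Figure D5:**
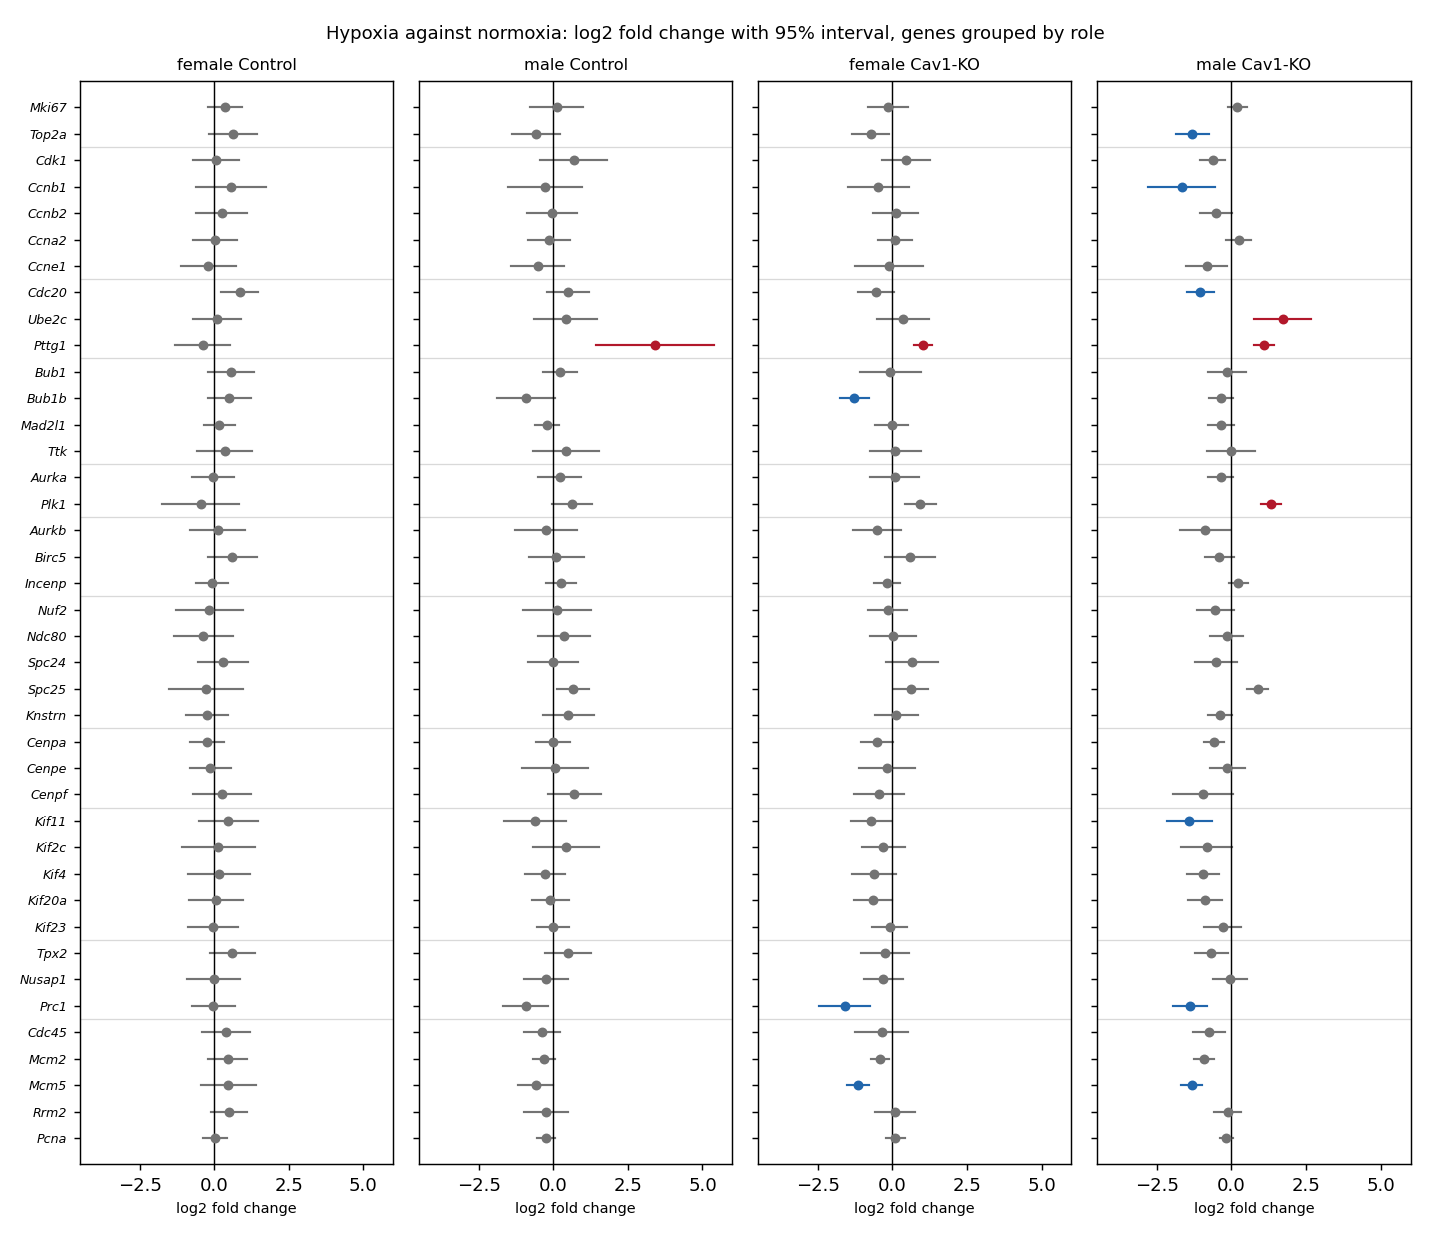
Log2 fold change (x axis) of each of the 40 genes (y axis, grouped by role) in hypoxia against normoxia within Control and Cav1-KO of each sex, with bars for the 95% interval of edgeR's test, red for genes called higher and blue for genes called lower. The blue points number 3 in female and 6 in male Cav1-KO and 0 in Control.

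The last question was how Cav1-RC lungs differed from Cav1-KO lungs. In female normoxia the 2 Cav1-RC libraries lay below both Cav1-KO libraries for 32 of the 40 genes (23% of all genes), with a median log2 fold change of -0.56. Mki67 stood at 18.8 and 26.8 CPM in Cav1-RC against 33.3 and 38.4 CPM, and Top2a at 7.64 and 16.9 CPM against 26.3 and 25.5 CPM. No member was called by edgeR (0.1% of all genes were), 10 had an unadjusted p under 0.05 (8.73% of all genes), and DESeq2's Wald test called 1 (2.11% of all genes). Cdc20 had the smallest p, at a log2 fold change of -1.31 (SE 0.319, adjusted p = 0.375). Without Cav1-RC replicate 2 the count was 14, 13 lower and 1 higher (16.2% of all genes), with the remaining Cav1-RC library, a listed one, assumed to vary like the others. Alveolar macrophage markers were lower in Cav1-RC, at 389 and 452 CPM against 929 and 1187 CPM, as were thymocyte markers. Multiciliated (316 and 673 CPM against 154 and 182 CPM), smooth muscle (549 and 726 CPM against 426 and 467 CPM), alveolar type 2 and neutrophil precursor markers were higher without overlap, and their part was not tested.

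In male normoxia Pttg1 was called lower in Cav1-RC (3.59% of all genes were called), with a log2 fold change of -1.99 (SE 0.444, adjusted p = 0.0147). Of 16 alternatives 8 kept this call, and it was lost with DESeq2's Wald test, limma, both fits over 34 libraries, and without Cav1-KO replicate 1 or 3. Without the Cav1-RC libraries whose sex genes went against their label, which left replicate 3 alone in its group and assumed to vary like the Cav1-KO libraries, 6 members were called, and 3.82% of all genes. In female hypoxia Pttg1 was again the 1 call (8.98% of all genes), with a log2 fold change of -1.39 (SE 0.151, adjusted p = 0.00240). Of 16 alternatives 14 kept it, and both fits over 34 libraries did not (adjusted p = 0.106, and 0.642 with the listing term). In both hypoxic comparisons the Cav1-KO animals were listed and the Cav1-RC animals were not.

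In male hypoxia 5 genes were called (14.8% of all genes), 4 lower in Cav1-RC (6.59% of all genes) and Kif11 higher (8.16%). Plk1 stood at 6.17, 4.56 and 3.55 CPM in Cav1-RC against 14.5, 13.1 and 13.1 CPM, a log2 fold change of -1.51 (SE 0.211, adjusted p = 0.000887). Spc25 stood at 4.15, 3.36 and 3.36 CPM against 8.01, 7.93 and 8.57 CPM, a log2 fold change of -1.17 (SE 0.189, adjusted p = 0.00160). Ube2c stood at 3.97, 2.22 and 1.74 CPM against 16.6, 4.99 and 19.9 CPM, a log2 fold change of -2.39 (SE 0.4998, adjusted p = 0.00511). None of the 3 overlapped. With the listing term 1 call was left (2.19% of all genes). That term was a log2 difference of 1.31 for Plk1, 0.75 for Spc25 and -0.17 for Ube2c. The erythroid sums were 433 to 881 CPM in Cav1-RC against 1668 to 21023 CPM, and the 2 high Ube2c libraries held the highest of them. Of the 13 lists of cell type markers, 7 were higher in Cav1-RC without overlap, among them alveolar type 2 (18913 to 26027 CPM against 13970 to 14835 CPM) and fibroblast markers (1875 to 2398 CPM against 1255 to 1859 CPM), and their part was not tested. Mki67 stood at 24.1, 18.3 and 12.1 CPM in Cav1-RC against 22.9, 26.5 and 32.0 CPM, with overlap.

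Against Control, the Cav1-RC medians were 0.40 in female normoxia, -0.25 in male normoxia, 0.62 in female hypoxia and -0.54 in male hypoxia. Calls numbered 0, 0, 1 (Pttg1, higher) and 1 (Tpx2, lower), where 0.137%, 2.45%, 0.832% and 9.9% of all genes were called. At an unadjusted p under 0.05 there were 4, 0, 12 and 14 members, against 4.18%, 23.1%, 8.43% and 47.4% of all genes. DESeq2's Wald test called 1, 0, 4 and 2 members and 1.05%, 3.19%, 2.49% and 9.09% of all genes. In male Cav1-RC normoxia, replicates 1 and 2 had sex genes against their label. Over alternatives the male normoxia median ran from -0.55 to -0.063. Tpx2 stood at 4.21, 3.87 and 1.87 CPM in male Cav1-RC hypoxia and at 8.09, 5.71 and 7.94 CPM in Control, a log2 fold change of -1.11 (SE 0.314, adjusted p = 0.0246). The Control animals were listed and the Cav1-RC animals were not, and with the listing term the adjusted p was 0.225. That term for Tpx2 was a log2 difference of -0.13 (SE 0.311). Of 16 alternatives 8 kept the call, which was lost without Control replicate 1 or 3 or Cav1-RC replicate 2 or 3. Without Control replicate 2, whose sex genes went against its label, 6 members were called, all lower, and 11.8% of all genes. With all libraries kept, cardiac muscle sums were higher in Cav1-RC (1138 to 1291 CPM against 187 to 260 CPM). Smooth muscle sums were lower (449 to 546 CPM against 805 to 1108 CPM). Of all lists 3 were higher and 5 lower without overlap in male hypoxia, and their part was not tested. In Cav1-RC alone, hypoxia against normoxia called no member in either sex by edgeR or DESeq2, with 0.0285% of all genes called in females and 2.27% in males, and 3 and 2 members had an unadjusted p under 0.05, against 5.2% and 25.4% of all genes.

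Other genes of the cell cycle were taken in lists chosen by function. Of 85 other mitosis genes tested in female normoxia, 0 were called in Cav1-KO against Control by edgeR, and their median log2 fold change was 0.84. In male Cav1-KO, hypoxia called 1 of 83 higher and 12 lower, where 8.75% of all genes were called higher and 8.97% lower. Their median log2 fold change was -0.43, while their summed level was higher in each hypoxic library (1005 to 1032 CPM) than in each normoxic one (914 to 932 CPM). Hmmr, the hyaluronan receptor that acts at the spindle, had a log2 fold change of -2.80 (SE 0.411, adjusted p = 0.000600), and Mybl2, a transcription factor of mitotic genes, one of 1.21 (SE 0.214, adjusted p = 0.00155). Of 57 other replication genes 1 was higher and 6 were lower, Mcm6 of the same helicase as Mcm5 at -1.12 (SE 0.201, adjusted p = 0.00167).

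Among 26 regulators of cell cycle entry in the same comparison, Cdkn1a, the p21 inhibitor, rose with a log2 fold change of 1.38 (SE 0.103, adjusted p = 3.76e-05). Ccnd1 (cyclin D1), Ccnd2 (cyclin D2) and Cdkn2b, an inhibitor of Cdk4 and Cdk6, fell, with log2 fold changes of -1.54, -1.03 and -1.57. In female Cav1-KO hypoxia Cdkn2b and Ccnd1 fell as well, by log2 fold changes of -1.41 and -1.10. These values carry the same listing.

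Markers of other cells moved in the same comparisons, and their part in the levels of the proliferation genes was not tested. In female normoxia the summed fibroblast markers stood at 2914 and 3559 CPM in Cav1-KO, above the 2117 to 2744 CPM of Control, and alveolar macrophage markers at 929 and 1187 CPM, above 565 to 872 CPM. Alveolar type 2 markers (21307 and 22236 CPM against 23461 to 27695 CPM), smooth muscle markers (426 and 467 CPM against 550 to 945 CPM) and multiciliated cell markers (154 and 182 CPM against 288 to 515 CPM) were lower without overlap. Sums of the erythroid, neutrophil precursor, megakaryocyte, B cell, T cell, thymocyte, endothelial and cardiac muscle markers overlapped, the erythroid ones at 2061 and 2187 CPM against 125 to 2806 CPM. No gene of these lists was called in that comparison. In male normoxia, where the proliferation genes had no common direction, fibroblast sums were also higher in Cav1-KO (3149 to 3536 CPM against 1986 to 2319 CPM). Multiciliated sums were lower there too (166 to 188 CPM against 316 to 513 CPM). Of all lists in male normoxia, 5 were higher and 5 lower without overlap, and 6 overlapped.

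In male Cav1-KO under hypoxia 9 of 9 tested megakaryocyte and platelet genes were called higher, with sums of 70.2 to 374 CPM against 33.97 to 36.9 CPM in normoxia, and multiciliated cell markers summed to 309 to 393 CPM against 166 to 188 CPM. Fibroblast markers were lower, at 1255 to 1859 CPM against 3149 to 3536 CPM, as were alveolar type 2 markers, at 13970 to 14835 CPM against 19748 to 22589 CPM. Endothelial, T cell, thymocyte and cardiac muscle sums also lay below those of normoxia. In female Cav1-KO 5 of 9 megakaryocyte and platelet genes were called higher, with sums of 63.9 to 157 CPM against 31.7 to 36.4 CPM. Fibroblast sums there were 1983 to 2287 CPM against 2914 and 3559 CPM. Erythroid and multiciliated sums were also higher without overlap, and alveolar macrophage, endothelial, T cell, thymocyte and cardiac muscle sums lower.

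In Cav1-KO against Control under hypoxia, megakaryocyte sums were higher in females (63.9 to 157 CPM against 23.1 to 41.7 CPM), and T cell, alveolar type 2, fibroblast and smooth muscle sums were lower without overlap, with fibroblasts at 1983 to 2287 CPM against 2988 to 4396 CPM. In males erythroid sums were higher (1668 to 21023 CPM against 215 to 708 CPM). Neutrophil precursor, T cell, thymocyte, alveolar type 2, fibroblast, smooth muscle and multiciliated sums were lower there without overlap, with fibroblasts at 1255 to 1859 CPM against 2119 to 2860 CPM.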

How the data were processed

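Whole-lung RNA of 34 mice was sequenced as poly-A, strand-specific paired reads. The authors mapped the reads to mm10 with HISAT2 2.0.5 and counted them per gene with featureCounts 1.5.0-p3 at default settings. Reads of overlapping or near-identical genes may be lost or misplaced. They deposited these raw counts and FPKM values made from them. Groups follow the labels, and 1 further library of uncertain identity entered no comparison.

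From the deposited counts, 18 pairwise comparisons and 4 differences between comparisons were tested across all genes with edgeR 4.0.16 in R 4.3.3 (TMM, filterByExpr, estimateDisp, glmQLFit, glmQLFTest), using the libraries of the groups compared. Calls needed a log2 fold change beyond 1 in either direction and a p, adjusted by Benjamini-Hochberg over all genes, under 0.05, as in the study. Dividing the log2 fold change by the square root of F gave its standard error. P-values measure the spread between the mice of a group, 2 or 3 each. Alternatives used DESeq2 1.42.0, limma 3.58.1 on the deposited FPKM values, other filters, a replicate block and left-out libraries. The fit was also run on simulated data, whose outcome is not given here.

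All 40 members may be named. Values per library are given for Mki67, Top2a and the called members of smallest adjusted p. From the other lists up to 3 called genes per direction are named. The members and lists were chosen with earlier results of these data known. Replicate numbers shared between groups did not pair the libraries.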

Additional observations from a re-analysis of the deposited data

Results flagged for a closer look

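In Cav1-KO against Control under hypoxia, 5 members had all female Cav1-KO libraries on one side of Control and all male ones on the other, which held for 0.847% of all genes. The female minus male log2 difference was 1.26 for Aurka, 1.88 for Birc5, 1.68 for Ndc80 and 0.83 for Rrm2, higher in females and lower in males, and -1.41 for Bub1b, lower in females and higher in males. The interaction test of edgeR gave unadjusted p-values of 0.00781, 0.000968, 0.00259, 0.0314 and 0.00363 and adjusted p-values of 0.257 to 0.275, none past the threshold. The female Cav1-KO group includes replicate 2, which carried Y chromosome reads, and the male Control group a library with female levels of Xist.

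In Cav1-RC against Control under hypoxia the same held for 3 members (0.615% of all genes), with female minus male log2 differences of 1.08 for Kif23, a kinesin of cytokinesis, 1.60 for Mki67 and 1.30 for Spc24, a kinetochore protein. In normoxia it held for Bub1, at 0.83 (0.617% of all genes). Each was higher in females and lower in males, and these 4 differences were not tested. The male Control hypoxia group holds replicate 2 and the male Cav1-RC normoxia group replicates 1 and 2, all with female levels of Xist.

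The effect of hypoxia on Cdc20 differed between male Cav1-KO and male Control in the test itself, with a log2 difference of -1.52 (edgeR's quasi-likelihood test, adjusted p = 0.0492). Cdc20 was the 1 member of 40 called, where 2.03% of all genes were called. Over 22 alternatives its adjusted p ranged from 0.00382 to 0.116, so not all of them kept the call. The male Control hypoxia group holds replicate 2, with female levels of Xist. In both genotypes the hypoxic animals were listed and the normoxic ones were not.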

How the results depend on the processing

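The 22 counts of called members kept within 1.5 times of their value with DESeq2 size factors. In all, 157 of 232 counts under other settings did so and 75 did not. The median log2 value of the 40 genes kept its sign under every alternative run in 16 of the 22 comparisons, and the medians of the other 6 lay between -0.19 and -0.012. The cause of the changes was not tested.

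Replicate numbers shared by the groups did not pair the libraries: correlations of same-numbered deviations ran from -0.20 to 0.64, and in 1 of 18 comparisons, with 2 pairs, all were over 0.1. With the replicate block, counts went from 0 to 8 in Cav1-KO against Control, female normoxia (5.48% of all genes), from 0 to 1 in Cav1-RC against Cav1-KO and against Control, female normoxia (2.29% and 1.01%), from 1 to 2 in Cav1-RC against Control, male hypoxia (8.88%), and from 1 to 0 for male Control hypoxia and for the male Cav1-KO difference of hypoxia (4.76% and 1.41%).

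In Cav1-KO against Control, the female normoxia count of 0 became 8 with DESeq2's test, 9 without the filter, 7 in 1 fit over 34 libraries and 9 with the listing term, with 3.35%, 2.42%, 2.53% and 1.93% of all genes called. The female hypoxia count of 1 became 9, 7, 11 and 3 (8.37%, 3.3%, 9.42% and 2.17%), and the male hypoxia count of 0 became 1 in all 4 (2.49%, 2.13%, 2.06% and 3.05%). The sex difference under hypoxia went from 0 to 5, 2 and 1 in the first 3 (0.861%, 0.495% and 0.186%). The Cav1-KO difference of hypoxia in females went from 0 to 5, 3 and 4 (7.4%, 4.72% and 12.7%), and in males from 1 to 3 without the filter (2.49%).

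For Cav1-RC against Cav1-KO, female normoxia went from 0 to 1, 3 and 2 in the first 3 settings (2.11%, 3.2% and 1.61%), female hypoxia from 1 to 2 without the filter and to 0 in both fits over 34 libraries, and male normoxia from 1 to 0 with DESeq2 and both fits. Against Control, Cav1-RC went from 0 to 1 (DESeq2, no filter) in female normoxia, from 1 to 4, 2 and 3 in female hypoxia (DESeq2, both fits), and from 1 to 2, 4, 3 and 0 in male hypoxia. For hypoxia the listing term gave 0 in male Control and in Cav1-KO of females (from 4) and males (from 9), and 1 (from 5) for Cav1-RC against Cav1-KO, male hypoxia.

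limma on log2(FPKM + 1), which shrinks low genes, gave 0 in female and 3 in male Cav1-KO hypoxia, 3 (2 without filter) in Cav1-RC against Cav1-KO, male hypoxia, and 0 for the other single calls of males but Cav1-KO normoxia, as did a pseudocount of 0.1 for those single calls. With no fold threshold the counts were 18 in male Cav1-KO hypoxia (55.1% of all genes) and 6 in Cav1-RC against Control, male hypoxia (37%). They were 3 and 2 in Cav1-RC against Cav1-KO (male normoxia, female hypoxia), with 12.5% and 20.8% of all genes.

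Without the 4 libraries whose sex genes departed from the label, counts were 2 in Cav1-KO against Control, male hypoxia, 2 in male Control hypoxia, 6 in Cav1-RC against Cav1-KO, male normoxia, 6 in Cav1-RC against Control, male hypoxia, 2 for the sex difference under hypoxia and 3 for the male Cav1-KO difference. Leaving out 1 library gave 0 to 9 and 1 to 14 (Cav1-KO against Control, female normoxia and hypoxia, 9 and 14 without Control replicate 1), 0 to 2 and 1 to 3 (male hypoxia and normoxia), 0 to 14 (sex difference under hypoxia, 14 without female Control hypoxia replicate 1), 0 to 9 (female Cav1-KO difference, the same library) and 0 to 3 (male). It gave 0 to 14, 0 to 1, 1 to 3 and 4 to 7 for Cav1-RC against Cav1-KO (female and male normoxia, female and male hypoxia), 0 to 6 for Cav1-RC against Control, male hypoxia, and 0 to 2, 2 to 5 and 7 to 13 for hypoxia in male Control and in Cav1-KO of females and males.

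For fits with libraries left out, the share of all genes called is given above for some only. Such ranges of counts are therefore not results about the 40 genes alone. A member held as few as 7 counts in a library, and levels in whole lung do not show which cells divided.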

Other observations

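The library of uncertain identity, whose label gives female, Cav1-KO and normoxia as uncertain, carries an animal number that the western blot source data also list. It held 30930000 counts, 4.66 CPM of Cav1 and 666 CPM of Xist. Its 38 genes without Pttg1 and Pcna summed to 215 CPM. Mki67 stood at 24.5 CPM, Top2a at 5.71 CPM, Plk1 at 13.1 CPM and Pttg1 at 80.2 CPM.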
